A study of Ovis aries with 2 samples.

Results

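The cells described here were the AURKA-high late spermatocytes of the control library, 855 of its 7030 cell barcodes (12.2%, exact Clopper-Pearson 95% interval 11.4 to 12.9%). They were chosen as the barcodes with 5000 or more unique molecular identifiers (UMIs, each a tagged RNA molecule counted once) of which 5 or more were of AURKA. They made up 25.1% (23.7 to 26.6%) of the 3404 control barcodes of that depth, called deep barcodes here. The study profiled single cells of sheep (Ovis aries) testis at 8 months of age in 2 droplet libraries made with a 10x 3' Gel Bead Kit V3. The control library received no agent that the labels name, and the other library is labelled ZEA with the number 0.75, whose unit and spelled-out name the labels do not give. How the exposure was given, and whether several animals were pooled, is also not in the labels. The series holds 15839 barcodes in all.

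Late in the first meiotic prophase, a spermatocyte has paired its homologous chromosomes along the synaptonemal complex, repaired the programmed DNA breaks and formed crossovers. It then stores and activates cyclin-dependent kinases and Aurora and Polo kinases, takes down the complex, condenses its chromosomes and builds a spindle for the first of the meiotic divisions. AURKA is the Aurora kinase of centrosomes and spindle poles. NUF2 is a subunit of the NDC80 complex, which couples kinetochores to microtubules, and PRC1 bundles the antiparallel microtubules of the spindle midzone. CCDC38 is a coiled-coil protein needed for the sperm flagellum. After the divisions, round spermatids build the acrosome and the flagellum and later exchange histones for transition proteins and protamines.

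Each condition had 1 library, so no value below has a replicate check and no test was made. Cells of a library are not replicates. Levels are given as CPM, the summed UMIs of a set of barcodes scaled so that every set has an equal total, with exact Poisson 95% intervals. Ratios are given as log2 values, where an interval is an exact binomial one conditional on the sum of both counts. These intervals express counting error alone. A gene was called higher or lower at a difference of 2-fold or more. The control library held 53044981 UMIs and the ZEA library 22148456. Members held 5220 to 55721 UMIs per barcode (median 11398), and the 2549 other deep control barcodes had a median of 12640. Members had a median of 1994 detected genes after each barcode was drawn down to 5000 UMIs, and the other deep barcodes 1885. The 13 mitochondrially encoded genes took 0.488% of the members' UMIs and 0.0930% of those of the other deep barcodes, and the part of this difference in the results was not tested. The libraries shared 15 barcode sequences, 1 of them a member's.

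AURKA (ENSOARG00000018369) ranged from 5 to 43 UMIs in the members, with a median of 9. Of the other deep barcodes, 1396 had none and 709 had 1. The distribution had no gap at the threshold: 102 barcodes had 4 UMIs, just outside it, and 109 had 5, just inside. These neighbours had similar levels of NUF2 (239 CPM at 4 and 249 at 5), of PRC1 (229 and 273) and of CCDC38 (216 and 212). Barcodes with similar marker levels thus lay just below the threshold.

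**Figure D1:**
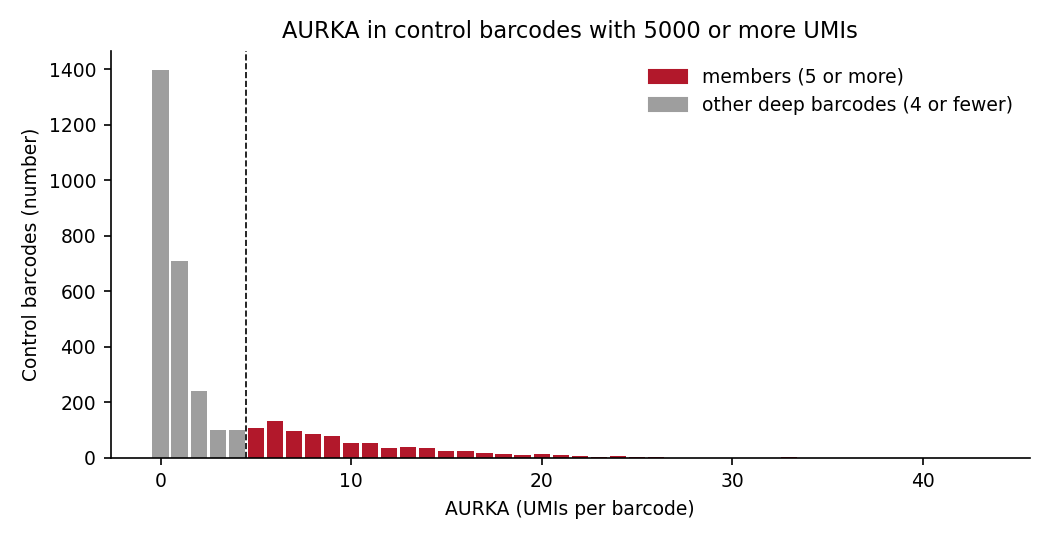
Number of control barcodes (vertical axis) by their AURKA count in UMIs (horizontal axis), for the 3404 barcodes with 5000 or more UMIs. The dashed line marks the threshold, with 102 barcodes at 4 UMIs and 109 at 5, and the members reach 43 UMIs.

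The markers named for these cells were higher in the members than in the other deep barcodes, with AURKA itself high by the rule. AURKA stood at 679 CPM (665 to 694) in the members and 54.6 (52.2 to 57.1) in the others, a log2 ratio of 3.64. NUF2 (ENSOARG00000011189) had 0 to 26 (median 4) UMIs per member and 0 to 15 (median 0) per other barcode. Its level was 327 CPM (317 to 337) in the members against 35.7 (33.7 to 37.7), a log2 ratio of 3.19. PRC1 (ENSOARG00000012267) had 0 to 29 (median 4) UMIs per member and stood at 292 against 37.2 CPM (2.97, 2.88 to 3.06). CCDC38 (ENSOARG00000011952) had 0 to 34 (median 3) UMIs per member and stood at 314 against 25.2 CPM (3.64, 3.53 to 3.75). The per-barcode ranges of these 3 genes overlapped between members and others, since both sides held barcodes with none of them. Members were chosen by AURKA in the same barcodes, so these differences describe the choice and support nothing.

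Pachytene markers were higher in the members than in the other deep barcodes, spermatid markers were lower, and several defining markers of somatic cells were at 0. The 9 measured pachytene spermatocyte markers, among them SYCP2, SMC1B and PIWIL1, summed to 2 to 145 UMIs per member (median 15) and to a median of 2 in the other deep barcodes. A defining marker of spermatocytes was nearly at 0: SYCP3, of the synaptonemal complex, singled out after its value was seen, had 14 UMIs over all members (1.11 CPM). The 7 elongating spermatid markers summed to a median of 18 UMIs per member and 180 per other barcode. The 9 round spermatid markers had medians of 43 and 89. Of the Leydig cell markers, INSL3, STAR and HSD3B1 were at 0 in the members and CYP11A1 had 3 UMIs. Endothelial markers gave 26 UMIs in all, with CDH5 at 0, and lymphocyte markers gave 18, with CD3D, CD3G, IL7R, CCL5, NKG7 and GZMA at 0. Macrophage markers gave 266 UMIs, of MRC1 and CD14 except for 5, while CSF1R, CD68 and C1QB were at 0. Perivascular markers gave 59 UMIs, stromal fibroblast markers 161, peritubular myoid markers 91, spermatogonium markers 166 and Sertoli cell markers 626, each with a median of 0 per member. RGS5, KCNJ8, PDGFRB, LUM, PDGFRA, COL1A1, TAGLN, CNN1, GFRA1 and NANOS3 were at 0 among them. No measured Sertoli cell marker was at 0, and 374 members held a UMI of these markers. Macrophage and peritubular myoid markers summed to more in the members (21.1 and 7.21 CPM) than in the other deep barcodes (9.60 and 3.13). The sums of the other somatic lists were lower in the members. Of the 8 pachytene markers that entered the comparison described below, 7 were 2-fold or more higher in the members, where 39.6% of all genes were. With ratios scaled to the median gene, 6 were higher, where 24.2% of all genes were. These counts come from the barcodes in which AURKA was used to choose the members, so they describe the set beside its label and do not test the label.

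The first comparison set the members against the other deep barcodes, in which the spermatid genes HMGB4 and TNP1 were high, and 8898 genes entered it. Of these, 3525 (39.6%) were 2-fold or more higher in the members and 2680 (30.1%) were 2-fold or more lower. The median gene had a log2 ratio of 0.59 (members over others). With ratios scaled to that median, 24.2% were higher and 35.4% lower, so both counts are given below for each list. These shares are the background against which each list is read.

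Aurora kinases and their partners were higher in the members in 8 of the 12 genes that entered, also after scaling, and none was lower. AURKA, which chose the members, is 1 of the 8; without it the count was 7 of 11. TPX2, which activates AURKA on spindle microtubules, had 0 to 22 (median 2) UMIs per member and stood at 161 against 13.8 CPM (3.55, 3.40 to 3.69). AURKB, the kinase of the chromosomal passenger complex, was low in absolute count, with 0 to 6 (median 0) UMIs per member, at 30.9 against 4.66 CPM (2.73). BIRC5, the survivin subunit of that complex, stood at 239 against 60.2 CPM (1.99), and SGO2, which protects centromeric cohesion, at 165 against 17.5 (3.24). PLK1, the Polo kinase of mitotic and meiotic entry, did not reach 2-fold: it had 0 to 34 (median 8) UMIs per member against 0 to 27 (median 4) per other barcode (0.71, 0.67 to 0.75). The 17 leukocyte barcodes described below held it at 162 CPM (44.1 to 415).

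Cyclins, cyclin-dependent kinases and their regulators were higher in 9 of 10 genes (7 after scaling), and none was lower. CDK1, the kinase of M phase, stood at 25.5 against 1.70 CPM (3.91, 3.51 to 4.34), with at most 4 UMIs in a member. CCNA1, the cyclin A of male meiosis, had 0 to 16 (median 3) UMIs per member and stood at 237 against 37.2 CPM (2.67). CCNB2, a cyclin B, stood at 511 against 178 CPM (1.52). SPDYA, the cyclin-like activator that ties CDK2 to telomeres in meiosis, stood at 324 against 44.2 CPM (2.87). PKMYT1, which inhibits CDK1, and CDC25C, which activates it, were both higher (log2 2.65 and 2.23). CCNB1 and AURKC were not analysed here, as no symbol matched them.

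Kinetochore genes were higher in 17 of 22 (10 after scaling, with 2 then lower). CENPF, a large outer kinetochore protein, had 0 to 105 (median 7) UMIs per member and 0 to 39 (median 0) per other barcode, and its level was 695 against 82.3 CPM (3.08, 3.02 to 3.14). NDC80 and DSN1, of the microtubule-binding core, were higher at log2 ratios of 2.78 and 2.87. SPC24, of the NDC80 complex, stood at 524 against 152 CPM (1.78). SKA3, which stabilizes the attachment to microtubules, was at the same level on both sides (334 and 342 CPM; log2 -0.03, -0.08 to 0.02).

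Midzone and cytokinesis genes were higher in 12 of 13 (11 after scaling), and none was lower. KIF23 and RACGAP1, the motor and the GTPase-activating protein of centralspindlin, stood at 72.3 against 6.32 CPM (3.52) and at 90.0 against 11.2 (3.01). CEP55, which organizes the midbody and the intercellular bridges of germ cells, had 0 to 16 (median 2) UMIs per member, at 182 against 24.7 CPM (2.88, 2.76 to 2.99). Motors and microtubule factors of the spindle were split, with 10 of 22 higher and 6 lower (9 and 8 after scaling). Over all genes, 39.6% were higher and 30.1% lower (24.2% and 35.4% after scaling). KIF18A, CKAP2L and ASPM were higher (log2 3.56, 3.38 and 2.97), while the depolymerase KIF2C was at 123 against 237 CPM (-0.94).

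Genes of the spindle checkpoint and of the anaphase-promoting complex were higher in 11 of 16 and lower in 1 (8 and 2 after scaling). UBE2S and UBE2C, the ubiquitin-conjugating enzymes of that complex, were among the more abundant: UBE2S had 1 to 43 (median 11) UMIs per member and 0 to 20 (median 1) per other barcode (2.88). UBE2C stood at 438 against 91.9 CPM (2.25, 2.19 to 2.32). BUB1, a checkpoint kinase, stood at 124 against 19.7 (2.65), and ESPL1, the separase that opens cohesin, at 9.19 against 1.01 (3.19). The gene that was lower was ANAPC2, the cullin of the complex, at 135 against 755 CPM (-2.48). Condensin and compaction genes were higher in 5 of 6, also after scaling: TOP2A, which untangles chromosomes, stood at 209 against 23.3 CPM (3.17), and SMC4 at 177 against 32.2 (2.46). Centriole and centrosome genes were higher in 7 of 18, near the share of all genes (39.6%), and lower in 4 (3 and 4 after scaling).

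**Figure D2:**
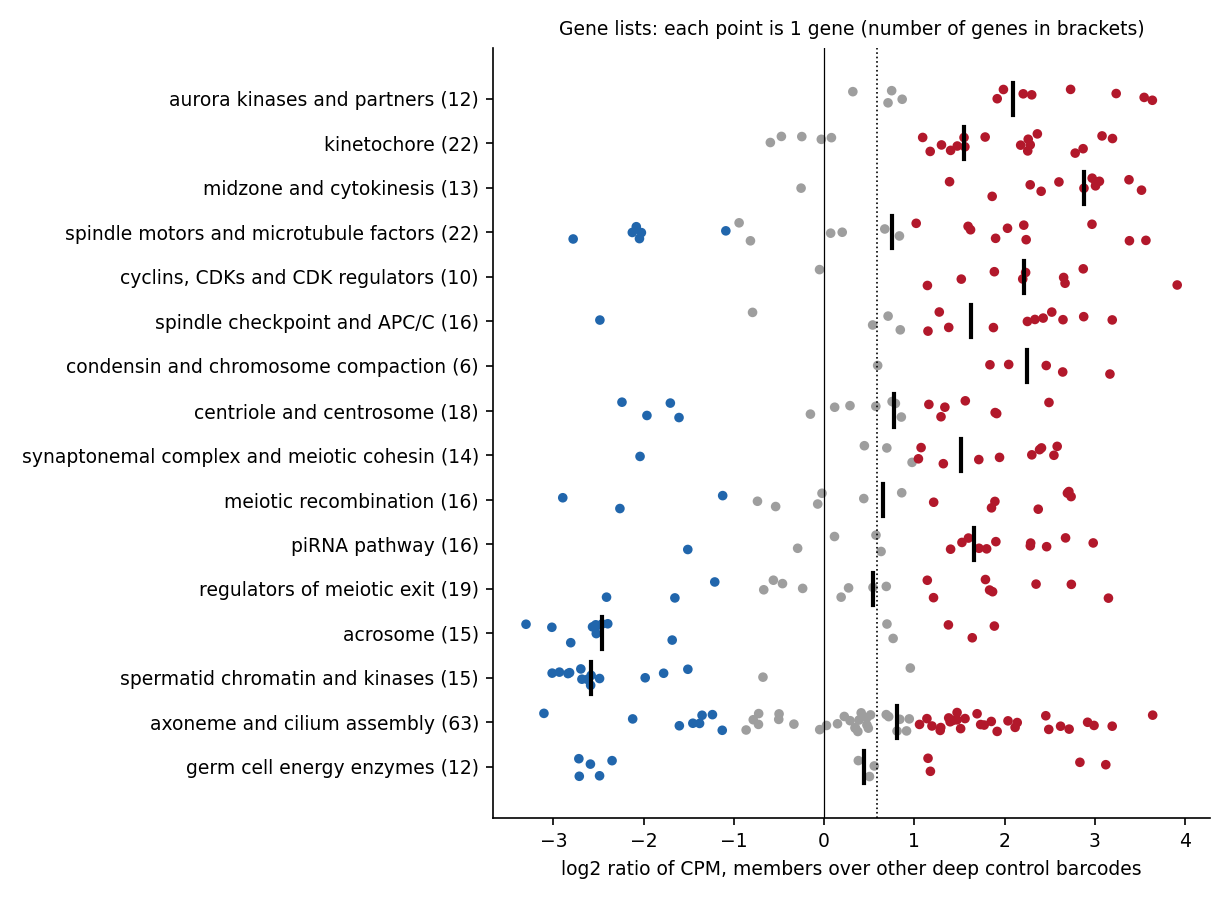
Log2 ratio of CPM in members over other deep control barcodes (horizontal axis) for the genes of 16 lists (vertical axis, number of genes in brackets). Each point is 1 gene, red at 2-fold or more higher, blue at 2-fold or more lower, grey between, with the list's median as a bar and the median of all 8898 genes as a dotted line at 0.59. Midzone and cyclin genes lie to the right of that line except for 1 gene each, and acrosome and spermatid chromatin genes lie mostly to the left of 0.

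Lists of earlier prophase differed among themselves. Synaptonemal complex and meiotic cohesin genes were higher in 10 of 14 and lower in 1 (7 and 1 after scaling). SYCP2, of the chromosome axis, had 0 to 57 (median 5) UMIs per member and 0 to 50 (median 1) per other barcode, at 557 against 113 CPM (2.30, 2.24 to 2.36). SMC1B, the meiotic cohesin subunit, stood at 359.8 against 61.6 (2.55), while RAD21, the general one, was lower at 7.61 against 31.3 (-2.04). Recombination genes were higher in 7 of 16, near the share of all genes, and lower in 3 (6 and 5 after scaling). MLH3, of the crossover nuclease, stood at 637 against 97.3 CPM (2.71), and SPATA22, which loads on single-stranded DNA, at 169 against 25.3 (2.74). DMC1, the meiotic strand-exchange recombinase, and its helper MND1 went the other way (log2 -2.90 and -2.26). Genes of the piRNA pathway, which guards germ cells with small RNAs, were higher in 11 of 16 and lower in 1 (9 and 1 after scaling), the lower one being GTSF1 at 1419.7 against 4045 CPM (-1.51).

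Among 19 regulators of meiotic exit, 8 were higher and 3 lower (6 and 6 after scaling, and the list median of 0.54 turns negative when the median of all genes is subtracted). The 8 of 19 was near the share of all genes (39.6%). MYBL1, the transcription factor of pachytene genes, had 0 to 16 (median 1) UMIs per member and stood at 129 against 14.6 CPM (3.15). HSPA2, the chaperone that activates CDK1 in spermatocytes, stood at 113 against 22.3 (2.35). TCFL5 and TESMIN, both testis transcription regulators, were higher at log2 1.83 and 1.79. RFX3, a regulator of cilium genes, was lower at 11.6 against 61.9 CPM (-2.41).

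Flagellum genes were split. Of 63 axoneme and cilium assembly genes, 28 were higher in the members and 8 lower (16 and 14 after scaling). The counts of higher genes were near the shares of all genes (39.6%, and 24.2% after scaling). CCDC40, a molecular ruler of the axoneme, stood at 206 against 22.6 CPM (3.19), and ZMYND10, which assembles dynein arms, had 0 to 29 (median 5) UMIs per member, at 431 against 57.0 (2.92). IFT52, of the intraflagellar transport train, stood at 694 against 106 (2.71). TEKT5, a filament protein of the sperm tail, was lower at 44.5 against 383 CPM. The whole list summed to 16023 CPM in the members and 12577 in the others.

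Acrosome genes fell into a small higher group and a large lower group. Of 15, 3 were higher and 10 lower (2 and 10 after scaling). ZPBP, which binds the zona pellucida and shapes the acrosome, had 2 to 82 (median 17) UMIs per member and 0 to 49 (median 4) per other barcode (1.38). DPY19L2, which anchors the acrosome to the nucleus, stood at 418 against 113 CPM (1.89). IZUMO1, the sperm protein that binds the egg, stood at 23.7 against 234 CPM (-3.30), and ACRV1, of the acrosomal matrix, had a log2 ratio of -2.53. Spermatid chromatin and kinase genes were lower in 13 of 15 (14 after scaling). HMGB4, an HMG-box protein of spermatids, had 2 to 360 (median 11) UMIs per member and 2 to 614 (median 117) per other barcode (-2.82, -2.84 to -2.80), and TNP1, a transition protein, had 0 to 74 (median 1) and 0 to 163 (median 13) (-3.01).

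Spermatid RNA was also counted in barcodes of other cell types. Of the 18 control barcodes with 3 or more UMIs of leukocyte genes, such as PTPRC and CD2, 1 had 19092 UMIs, with 1 UMI of macrophage markers and 10109 CPM of HMGB4, and was left out after its values were seen. The other 17, at a median of 1334 UMIs, held 1983 CPM of HMGB4 (1467 to 2622; 5525 with the deeper barcode included). The members, at a median of 11398 UMIs, were lower at 1259 CPM. These shares come from sets of unlike depth, so they do not tell whether the members' HMGB4 was expressed by them. TNP1 was at 147 CPM in the members, within the interval of the 17 barcodes (202, 65.7 to 472, from 5 UMIs; 662 with the deeper barcode included). IZUMO1 had no UMI in the 17, which is too few UMIs to set beside the 23.7 CPM of the members. The source of these UMIs was not tested. The 17 barcodes held 1 UMI of AURKA, 2 of NUF2 and none of PRC1 or CCNA1.

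Germ cell energy enzymes were split, with 4 of 12 higher and 5 lower (2 and 5 after scaling, and the list median of 0.44 turns negative when the median of all genes is subtracted). Over all genes, 39.6% were higher and 30.1% lower (24.2% and 35.4% after scaling). LDHC, the testis lactate dehydrogenase, had 0 to 106 (median 16) UMIs per member and 0 to 52 (median 1) per other barcode (2.83), and LDHA stood at 648 against 74.5 CPM (3.12). The spermatid isoform GAPDHS and the glycolytic enzyme GPI were lower (log2 -2.49 and -2.71).

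Among genes with a symbol and 200 or more UMIs, list members included, the 8 with the highest ratio over the other deep barcodes included MISP3, CDK1, PHF2, BCAR1, CCDC38, AURKA and WDCP, at log2 ratios of 4.21 down to 3.63, with that of AURKA fixed by the rule. BCAR1, an adhesion scaffold protein, stood at 122 against 9.71 CPM. The 8 lowest were OR6P1, SLC17A1, FAM177B, RELL1, KRT12, NPY1R, PLXDC2 and KLK15, at -5.29 up to -3.85, each with at most 1 UMI in any member (-8.34 to -3.41 for OR6P1, which had 2 UMIs over all members). The most abundant transcripts of the members were SERF2 (11332 CPM), CALM3 (11289), UBB (9575), DKKL1 (8713), GSTM3, HSP90AA1, NDUFB2 and HSPB9. CALM3, UBB and HSP90AA1 have close copies in the genome, so their reads may be shared with those copies. Over the 3404 deep barcodes drawn down to equal depth, the 6 genes whose counts followed AURKA most closely included HSP90AA1 (Pearson r = 0.731), UBE2S (0.730), LDHC (0.723), SERF2 (0.685) and LYPD4 (0.685). The points share 1 library and AURKA is sparse. Within the 855 members the same correlations were 0.185 for UBE2S and 0.260 for SERF2.

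The stage closest to the members was sought among deep barcodes with 4 or fewer UMIs of AURKA and 5 or more of PIWIL1, the Piwi protein of pachytene spermatocytes. There were 41 such PIWIL1-rich barcodes, with 6161 to 41157 UMIs (median 16361) and 1.62% mitochondrial UMIs. Of 7880 genes that entered, 1087 (13.8%) were 2-fold or more higher in the members and 1328 (16.9%) were 2-fold or more lower. The median gene had a log2 ratio of -0.02. AURKA and PIWIL1 chose the sides and are descriptions only.

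NUF2 and PRC1 did not differ by 2-fold from these barcodes. NUF2 was at 358 CPM (314 to 406) in the PIWIL1-rich barcodes (log2 -0.13, -0.32 to 0.06) and PRC1 at 279 (241 to 322; log2 0.06, -0.15 to 0.28). CCDC38 was at 226 CPM (log2 0.48, 0.24 to 0.72). Of 21 kinetochore genes, 1 was higher in the members and 4 lower, and of 13 midzone genes 2 were higher and 3 lower. Cyclins and their kinases had 4 of 11 genes higher and 2 lower, and the spindle checkpoint and anaphase-promoting complex 2 of 16 higher and 4 lower. Of 11 Aurora list genes other than AURKA, which chose both sides, 6 were higher and none lower: PLK1 stood at 585 against 75.7 CPM (log2 2.95, 2.55 to 3.38) and BIRC5 at 239 against 65.3 (1.87, 1.44 to 2.33). CCNA1 stood at 237 against 41.6 (2.51), CCNB2 at 511 against 166 (1.62), and UBE2C at 438 against 56.4 (2.96, 2.50 to 3.46). CEP55 was higher as well (1.29, 0.89 to 1.73).

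Genes of pachytene were lower in the members than in the PIWIL1-rich barcodes. Of 15 synaptonemal complex and cohesin genes, 10 were lower and none higher, with SYCP2 at 1301 CPM in the PIWIL1-rich barcodes (log2 -1.22, -1.33 to -1.12) and SMC1B at 843 (-1.23). Recombination genes were lower in 8 of 17 and higher in 2, with MLH3 at -1.31 (-1.40 to -1.21). Condensin and compaction genes were lower in 5 of 7, among them SMC4 (-1.41), and TOP2A was at -0.90. Of 16 piRNA pathway genes, 7 were lower, the count including PIWIL1 itself, and TDRD5, a Tudor protein of that pathway, was at 310.3 CPM against 45.6 in the members (-2.77, -3.00 to -2.53). HSPA2 was lower too (-2.55). The lowest ratios of all were those of TEX101, a germ cell surface protein, at 13.1 against 907 CPM (-6.12, -6.37 to -5.87), and of H1-6, the testis linker histone, at 140.5 against 2417 CPM (-4.10, -4.20 to -4.01). The highest ratios were those of RIBC1, BCLAF3, CREG1 and MMP23B, each with 1 UMI in the PIWIL1-rich barcodes, so their log2 intervals are wide (2.29 to 10.08 for RIBC1). DNPH1, with 10 UMIs there, stood at 304 against 14.8 CPM (4.36, 3.48 to 5.42). Spermatid chromatin and kinase genes did not separate the sides, with none of 15 called in either direction.

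The members were not uniform. PIWIL1 was absent in 398, at 3 or 4 UMIs in 72, and at 5 or more in 72. The 72 with 5 or more were deeper (median 29076 UMIs) and resembled the PIWIL1-rich barcodes in several genes. In them H1-6 stood at 679 CPM (644 to 715), against 2417 in the PIWIL1-rich barcodes and 33.2 in the 742 members with lower PIWIL1 and low HMGB4. SYCP2 took the values 1301, 937 and 502 CPM over the same sets, with the 72 between the others. MLH3 took 1575, 1251 and 539. PLK1 ran the other way, at 75.7, 267 and 662, as did CCNA1 (41.6, 142 and 269) and UBE2C (56.4, 228 and 502). TEX101 did not grade in this way: it stood at 907 CPM in the PIWIL1-rich barcodes and at 21.5 and 11.6 in both sets of members. Against the other deep barcodes, H1-6 was at log2 1.31 with these 72 and at -0.89 without them. Both values kept the PIWIL1-rich barcodes, high in H1-6, among the other deep barcodes. The -0.89 thus left out barcodes high in PIWIL1 on 1 side only, so it does not tell whether the 1.31 rested on the 72.

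Another group, of 42 members, had 15 or more UMIs of HMGB4 after being drawn down to 5000. Another 28 had 10 to 14, 6 had 15 to 19 and 36 had 20 or more. Scrublet, which scores barcodes for being 2 cells in a droplet, marked 37 of the 42 as doublets, and 57 (6.67%) of all members against 66 (2.59%) of the other deep barcodes. These members were deep (median 21869.5 UMIs). The 41 of them with 4 or fewer UMIs of PIWIL1 held HMGB4 at 5787 CPM, between the 912 of the 742 and the 7948 of other deep barcodes with 1 to 4 UMIs of AURKA. HMGB4 split the 41 from the 742, so the order of these sets in HMGB4 was fixed by the cut. The 41 also held less CEP55 (93.8 against 209.8 CPM), CCNA1 (126 against 269) and AURKA (363 against 753) than the 742. Without the 42, 3616 genes were higher and 2733 lower than in the other deep barcodes, near the counts with them.

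**Figure D3:**
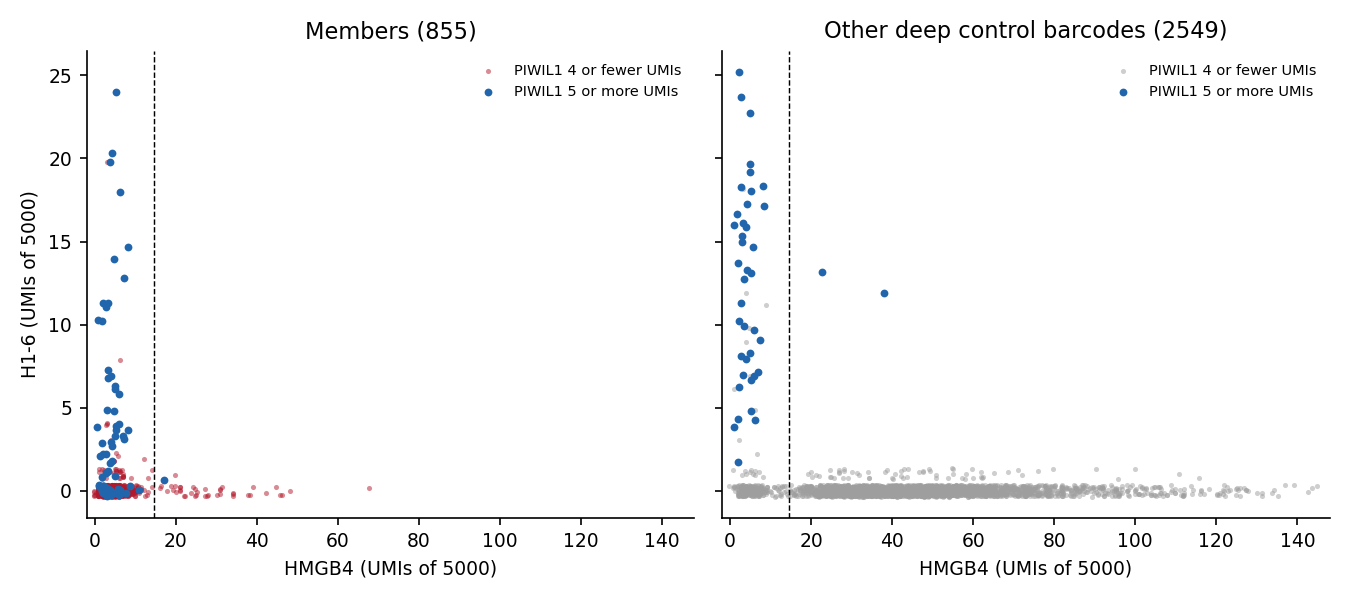
Each point is 1 deep control barcode drawn down to 5000 UMIs, with HMGB4 (horizontal axis, UMIs) against H1-6 (vertical axis, UMIs), for the 855 members (left) and the 2549 other deep barcodes (right). Points are shifted slightly at random so that equal counts do not hide each other. Barcodes with 5 or more UMIs of PIWIL1 (blue) carry most of the H1-6, and 42 members lie right of the dashed line at 15 UMIs of HMGB4.

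The set of other deep barcodes was graded as well. With the PIWIL1-rich barcodes left out, those with 1 to 4 UMIs of AURKA (1116) stood between the members and those with none (1392) for NUF2 and CCNA1: NUF2 was at 45.5 CPM (42.2 to 48.9) and 14.9 (13.2 to 16.8), and CCNA1 at 52.9 and 23.1. HMGB4 was at 7948 and 10018 CPM. PLK1 was at 411 and 322 CPM.

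**Figure D4:**
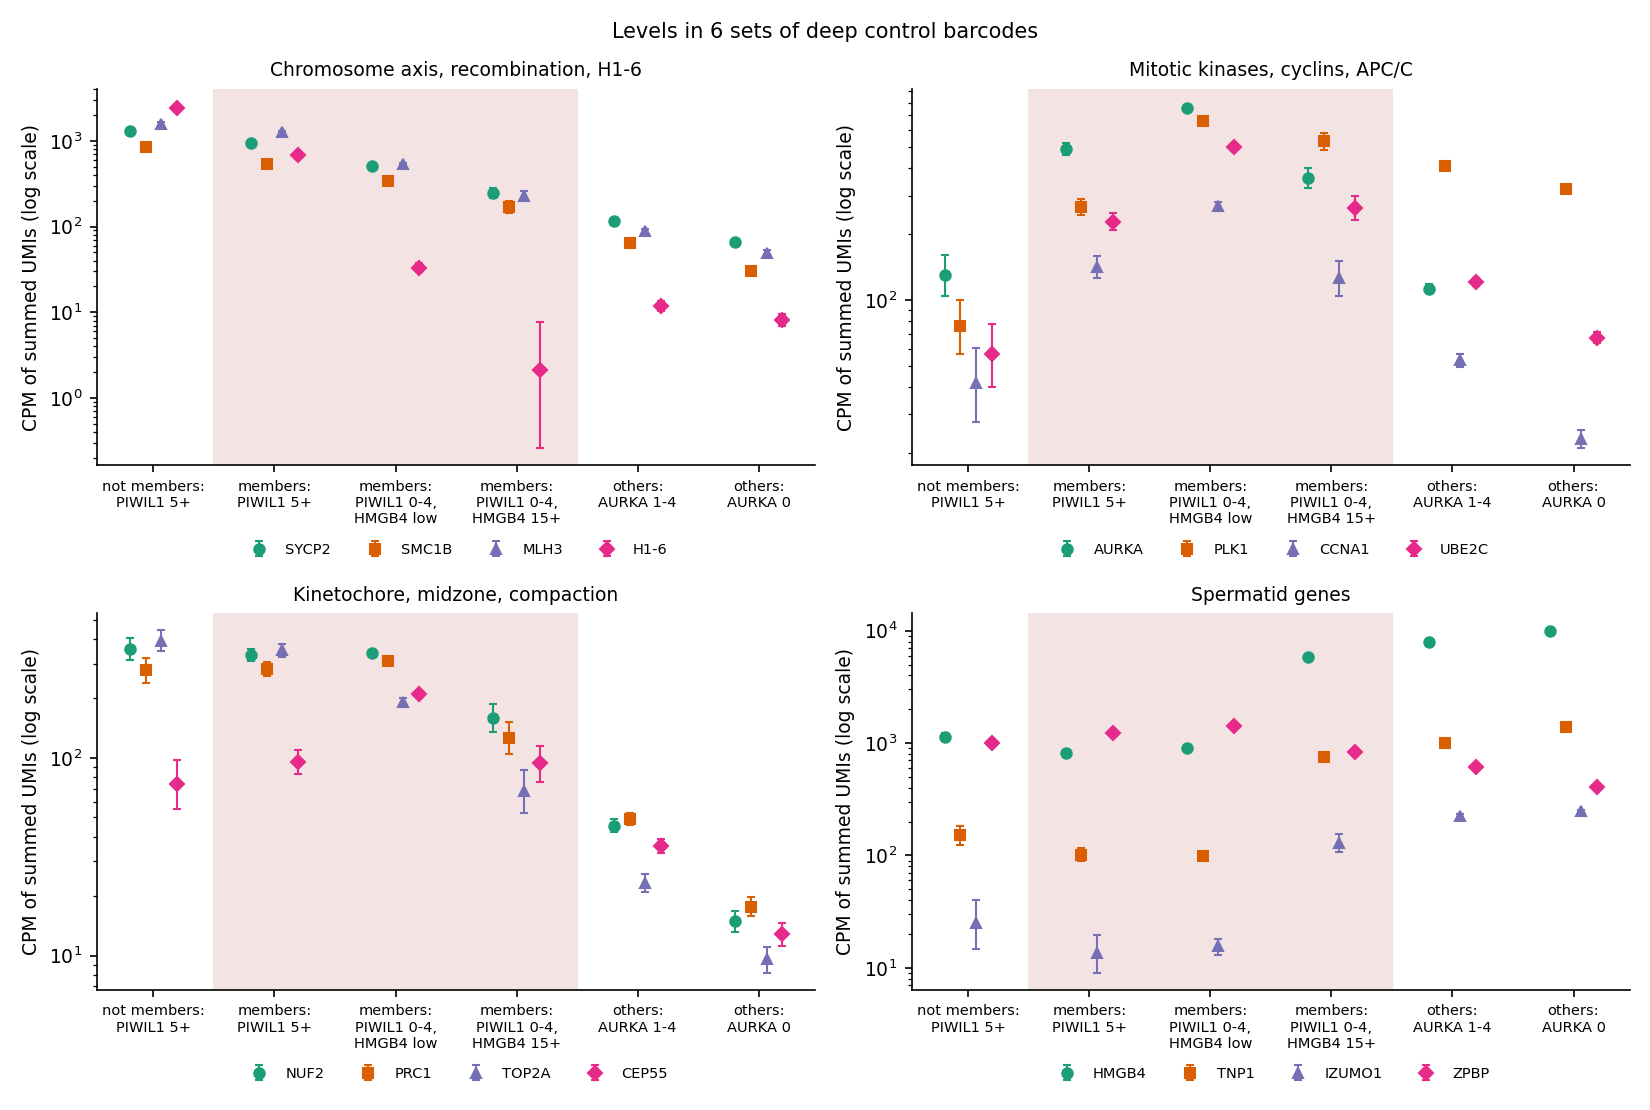
CPM with exact Poisson 95% intervals (vertical axis, log scale) of 16 genes in 6 sets of deep control barcodes (horizontal axis), members shaded. SYCP2, SMC1B and MLH3 step down from left to right, AURKA, PLK1, CCNA1 and UBE2C are highest in the 742 members with low PIWIL1 and low HMGB4, and HMGB4, TNP1 and IZUMO1 are high in the sets on the right and in the 41 members with high HMGB4.

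Within the members, the AURKA count moved with depth: the 500 barcodes with 5 to 9 UMIs had a median of 10093 UMIs in all, the 305 with 10 to 19 had 16477, and the 50 with 20 or more had 27774. The levels below are shares of the UMIs of each group. NUF2 was at 290.5, 356 and 364 CPM, PRC1 at 273, 301 and 332, and UBE2C at 439, 437 and 436. CDK1 was at 13.6, 34.1 and 41.8 CPM and MISP3 at 30.7, 56.7 and 110.5. TOP2A was at 169, 232 and 287, and PLK1 at 611, 571 and 538. CDK1, MISP3 and TOP2A were thus higher in barcodes with more AURKA, UBE2C was level and PLK1 slightly lower, and depth moved with the same groups.

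The same rule found 6 of 8809 barcodes in the ZEA library (0.0681%, 0.0250 to 0.148%), which was shallower, with 1137 deep barcodes. As a share of deep barcodes this was 0.528% (0.194 to 1.15%) against 25.1% in the control library. After each deep barcode was drawn down to 5000 UMIs, 2 or more UMIs of AURKA were left in 26.4% (24.9 to 27.9%) of control and 2.81% (1.93 to 3.95%) of ZEA barcodes. The 6 ZEA barcodes had 5 to 8 UMIs of AURKA, at 382 CPM (269 to 527), and 13 of PRC1 (134 CPM, 71.5 to 229.7). NUF2 had 8 UMIs (82.7 CPM, 35.7 to 163) and CCDC38 had none, which, taken as 3 counts of the total, allows a level of up to 31.0 CPM.

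A wider rule, 2000 or more UMIs and 2 or more of AURKA, found 1371 of 4254 control barcodes (32.2%, 30.8 to 33.7%) and 94 of 3046 ZEA barcodes (3.09%, 2.50 to 3.76%). CCDC38 stood at 237 CPM (230.1 to 244) in the former and 15.3 (8.54 to 25.2) in the latter. The median depth was 11210 UMIs in the control set and 9893.5 in the ZEA set. NUF2 stood at 255 and 81.4 CPM, and CCNA1 at 188 and 94.6. HMGB4 stood at 2732 and 2381 CPM. Against the rest of its own library, the ZEA set had 17 of 22 kinetochore genes and 8 of 10 midzone genes 2-fold or more higher, where 26.1% of 8724 genes were higher and 27.3% lower. The control set had 17 of 22 and 11 of 12, where 38.5% of 8527 genes were higher and 24.4% lower. All 7 endothelial markers were lower in the ZEA AURKA set than in the rest of that library, so the references of these ratios differ in makeup. With 1 library per condition, different Cell Ranger versions and different depths, the condition, the library and its processing cannot be told apart.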

How the data were processed

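The values in the deposited matrices are whole UMI counts for each gene in each barcode, with no normalization by the authors. Cell Ranger 3.1.0 and STAR are named in the submitters' processing notes, while per the file headers Cell Ranger 5.0.0 wrote the control matrix and 3.1.0 the ZEA matrix. The sources used here do not give the genome build, the annotation or the way barcodes were selected. The matrices list 27054 genes, 10636 of them without a symbol, and hold barcodes of 500 or more UMIs.

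Counts were summed over sets of barcodes as CPM (Python 3.11.15, scipy 1.17.1, scanpy 1.11.5). A gene entered a comparison with 50 or more UMIs in both sums together and a UMI in 5% or more of the barcodes of 1 side. For equal depth, barcodes were drawn down at random to 5000 UMIs. Doublets were marked with Scrublet (205 control barcodes) and kept. A count of 0 was set to 3 for a ratio. The ratio script was tested on simulated data.

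The genes named are the 4 markers; the 8 highest and 8 lowest ratios of each comparison (200 or more UMIs, 2-fold or more); up to 6 genes by ratio and 3 by count from each list; the 8 most abundant; and the 6 most like AURKA. Some genes that this rule names are not reported here. Members, lists and rule were chosen with earlier results of these data known. The lists in the closing observations, the leukocyte genes and the 1 barcode left out of that set, and the alternatives without members high in PIWIL1 or HMGB4 were chosen after seeing the data. Other alternatives varied the thresholds, depth, scaling, filters, doublets and reference.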

Additional observations from a re-analysis of the deposited data

Results flagged for a closer look

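Under the wider rule, acrosome genes and round spermatid markers went opposite ways in the 2 libraries when barcodes with 2 or more UMIs of AURKA were set against the rest of their library. Over all genes that entered, 38.5% were higher and 24.4% lower in the control library, with a median log2 ratio of 0.57. In the ZEA library 26.1% were higher and 27.3% lower, with a median of 0.20. The median log2 ratio of the 15 acrosome genes was -1.27 in the control library (3 higher and 10 lower by 2-fold) and 0.98 in the ZEA library (7 higher and 1 lower). That of the 9 round spermatid markers was -1.31 (1 higher and 7 lower) and 1.04 (5 higher and none lower). The difference was not tested, the lists share genes, and the rest of each library holds different cells: endothelial markers were lower in the AURKA set in 7 of 7 genes of the ZEA library, and too few UMIs of them entered in the control library.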

How the results depend on the processing

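No paired analysis was possible because each condition has 1 library. With AURKA of 10 or more UMIs, 355 barcodes were members. The share in the ZEA library was 3.09% under the wider rule, 2.81% at equal depth and 1.57% among barcodes of 10000 or more UMIs. Against the other deep barcodes, 2153 genes were higher after scaling to the median ratio and 4473 were lower with no filter on detection. Against the PIWIL1-rich barcodes, 666 were higher and 637 lower among genes of 200 or more UMIs, 3021 were lower with no filter on detection, and 751 were lower with AURKA of 2 or more at equal depth. That setting turned H1-6 against the other deep barcodes to -0.23 and MISP3 against the PIWIL1-rich barcodes to -0.78. Without members high in PIWIL1, but with the PIWIL1-rich barcodes kept among the other deep barcodes, H1-6 was at -0.89. Against barcodes with no AURKA, TEX101 was at 0.35. The cause of these changes was not tested. Of 165 named genes called against the other deep barcodes and with a value under all 11 alternatives of that comparison, 144 were 2-fold or more the same way under each, as were 44 of 58 against the PIWIL1-rich barcodes. Another 19 and 9 called genes had no value under some alternative. Many of these genes were named for large ratios in the same barcodes, which most alternatives reuse. The counts kept thus do not measure how robust the ratios are. The 41 PIWIL1-rich barcodes limit the precision of ratios for genes of few UMIs.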

Other observations

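Genes of the X chromosome differed by stage. In mammals the X chromosome is transcriptionally silenced in pachytene spermatocytes. A list of 102 genes known to be X-linked in mammals, chosen after seeing the data, had 75 genes in the files. It summed to 89.1 CPM (68.0 to 115) in the 41 PIWIL1-rich barcodes, 103 (89.6 to 117) in the 72 members with 5 or more UMIs of PIWIL1 and 406 (394 to 419) in the 742 members with less PIWIL1 and little HMGB4. Other deep barcodes with 1 to 4 UMIs of AURKA were at 610.5 CPM and those with none at 561. The 17 leukocyte barcodes were at 2955. Of 15 genes that entered against the PIWIL1-rich barcodes, 9 were 2-fold or more higher in the members and none lower. Entry took the UMIs of both sums together, and the 75 genes held 4639 in the members and 60 in the PIWIL1-rich barcodes. Genes with few UMIs in the members could thus hardly enter, so the 9 of 15 does not describe the whole list. The CPM sums above take in all 75 genes. Among all genes that entered, 13.8% were higher in the members than in the PIWIL1-rich barcodes. UBL4A stood at 131 against 26.7 CPM (log2 2.30, 1.63 to 3.06), VBP1 at 43.7 against 8.91 (2.30, 1.16 to 3.75) and PHF6 at 46.4 against 7.42 (2.64, 1.41 to 4.27). Against the other deep barcodes 14 of 24 were lower and 1 higher, where 30.1% of all genes were lower, among them CUL4B at 3.72 against 33.6 CPM (-3.17). Over members with 5 to 9, 10 to 19 and 20 or more UMIs of AURKA the list was at 458, 313 and 208 CPM, and it was at 513, 407 and 251 in 257, 427 and 171 members taken by rising depth (medians of 8775, 11885 and 25750 UMIs). Deeper members with more AURKA thus had the lower values. RIBC1, BCLAF3 and MSL3, named above or by the same rule for their high ratio to the PIWIL1-rich barcodes, are also X-linked in mammals and are not in the list.

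Lists of organelle proteins were taken by their symbols and also chosen after seeing the data. Against the other deep barcodes, 39.6% of all genes were 2-fold or more higher in the members, and 24.2% after scaling to the median ratio. Mitochondrial ribosomal protein genes were higher in 38 of 55 and lower in 2 (18 and 3 after scaling), with MRPL39 at 895 against 392 CPM. Subunits of respiratory complex I were higher in 16 of 30 and none was lower (8 and 0 after scaling), with NDUFS4 at 319 against 74.9 CPM. Symbols of proteasome subunits and factors, which also take in the recombination gene PSMC3IP, were higher in 22 of 37 and lower in 4 (11 and 5 after scaling), with PSMB10 at 1296 against 232 CPM. Cytosolic ribosomal protein symbols were higher in 8 of 34 and lower in 1 (3 and 3 after scaling), a smaller share than over all genes. Against the PIWIL1-rich barcodes, where 13.8% of all genes were higher and 16.9% lower, these lists had 3 of 54, 1 of 30, 1 of 37 and 0 of 33 genes higher and 9, 2, 5 and 3 lower.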
